A study of Mus musculus with 8 samples.

Results

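A group of 9 cyclins of the A, B, D and E types was followed in the testis of Dmrt6 null and wild-type mice at postnatal day 8 (P8). They are Ccna1, Ccna2, Ccnb1, Ccnb2, Ccnd1, Ccnd2, Ccnd3, Ccne1 and Ccne2, taken by symbol from an expression table of 22744 genes. The B-type gene Ccnb3 is not among them and is given with the other cyclins. All 9 passed the filter on low values and are among the 16634 genes tested. RNA came from whole testes of C57BL/6 background in 6 libraries, 3 from Dmrt6 null mice and 3 from wild-type mice, called biological replicates by the submitters. How the null allele was made is not given in the sources used here. Binding of DMRT6 was measured in adult wild-type testis of C57BL/6 and mixed background, with 1 chromatin immunoprecipitation (ChIP) library and 1 input library. The study concerns how DMRT6 governs the passage from mitosis to meiosis in spermatogenesis, and these cyclins are the regulatory subunits that drive those divisions.

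Cyclins bind and activate cyclin-dependent kinases (CDKs), and each class serves a part of the cell cycle. D-type cyclins with CDK4 or CDK6 act in G1 by phosphorylating the retinoblastoma protein, E-type cyclins with CDK2 act at entry into S phase, A-type cyclins act in S phase and G2, and B-type cyclins with CDK1 drive mitosis. In the mouse testis Ccna1 is a germ cell cyclin needed for the meiotic divisions of spermatocytes, while the other cyclins serve dividing spermatogonia and somatic cells such as immature Sertoli cells.

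Reads recovered from the steps of the authors' values summed to 23.8 to 29.0 M a library. Values below are log2 counts per 1 M reads (log2 CPM). The table has no transcript lengths, so levels are compared between libraries for a gene and not between genes. Dmrtb1, the gene for DMRT6, had 14, 25 and 26 reads in null libraries 1, 2 and 3, against 194, 510 and 254 in wild-type libraries 1, 2 and 3. It was lower in every null library, by -3.78 on the log2 scale (SE 0.36), with a limma adjusted p of 0.0516 that missed the threshold of 0.05. Under 7 of 14 alternatives the adjusted p was below 0.05, with a range over all 14 from 7.74e-05 (array weights) to 0.289 (without wild-type library 1). Null library 3 stood apart on the main axis of variation (44.8% of the variance), at 54.3 against -20.2 to 1.68 for the other libraries. Markers of spermatogonia, meiotic prophase, Sertoli, Leydig, peritubular, endothelial, white and red blood cells were all detected, with no measured marker at 0 reads in any library.

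The 3 cyclins of S phase, G2 and mitosis, Ccna2, Ccnb1 and Ccnb2, were lower in every null library than in any wild-type library, at 0.783 to 0.846 times the wild-type level. None of the 9 cyclins passed the threshold when p was adjusted over all tested genes, in limma or in voom, and these 3 had an unadjusted p below 0.05. Among all tested genes 0.00601% passed the adjusted threshold and 3.47% had an unadjusted p below 0.05, 1.85% in the lower direction. A full separation downward was found for 6.02% of tested genes and upward for 5.06%, against 3 and 0 of the 9 cyclins. By their means 5 cyclins were lower and 4 higher in null, where 48.3% of tested genes were lower, with a median change of -0.23 against 0.01 over all tested genes. Summed over the 9 genes, the level was 740 to 801 CPM in null libraries and 848 to 930 CPM in wild-type libraries. This sum includes the 3 separated genes, so it is not a further result, and it hides the 4 genes with a higher mean. The largest part of this sum is Ccnd2, whose groups overlapped, at a mean of 256 CPM in null and 307 CPM in wild type.

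**Figure D1:**
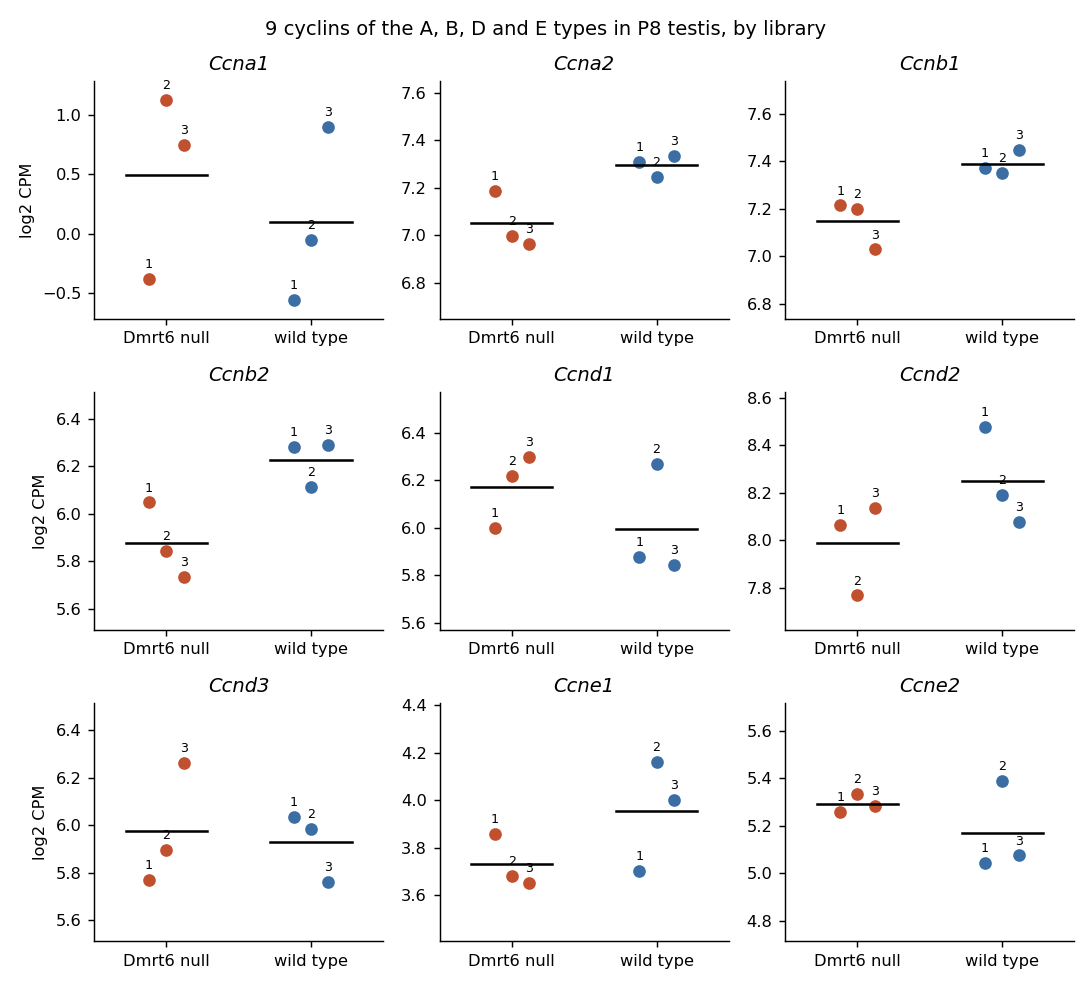
Log2 CPM of each cyclin (vertical axis; each panel spans 1 log2 unit, except Ccna1, which spans 2) in the 3 Dmrt6 null libraries (red) and the 3 wild-type libraries (blue), with replicate numbers and group means as bars. The null points lie wholly below the wild-type points for Ccna2, Ccnb1 and Ccnb2, and the groups overlap for the other 6 genes.

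Ccnb2 had the largest of these 3 changes. The gene encodes cyclin B2, a partner of CDK1 in mitosis, and lies on chromosome 9 from 70255496 to 70269361 on the minus strand (mm9, ENSMUSG00000032218). Its log2 CPM was 6.05, 5.84 and 5.73 in null libraries 1, 2 and 3, against 6.28, 6.11 and 6.29 in wild-type libraries 1, 2 and 3. The groups did not overlap, and the highest null and the lowest wild-type library were 0.07 apart. The mean was 5.87 ± 0.16 in null and 6.23 ± 0.10 in wild type (SD, 3 libraries each). The change was -0.35 (SE 0.12, 95% interval -0.62 to -0.08), or 0.783 times the wild-type level, with a limma p of 0.0165 and an adjusted p of 0.755. By p it was gene 128 of the 16634 tested. Ccnb2 was counted from 1371 to 2145 reads a library, for which the counting error is 2.16 to 2.70%.

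Ccnb1 encodes cyclin B1, the main mitotic partner of CDK1 (chromosome 13, 101548605 to 101556525, minus strand, ENSMUSG00000041431). Levels were 7.21, 7.20 and 7.03 log2 CPM in null libraries 1, 2 and 3, against 7.37, 7.35 and 7.45 in wild-type libraries 1, 2 and 3. It had the widest gap of the 3 separated cyclins, 0.14 between the highest null and the lowest wild-type library. The means were 7.15 ± 0.10 in null and 7.39 ± 0.05 in wild type (SD, 3 libraries each), a change of -0.24 (SE 0.09, 95% interval -0.45 to -0.03). That is 0.846 times the wild-type level, with a limma p of 0.0307 and an adjusted p of 0.755. How reads shared with any near-identical copy were counted is not given, so its level is uncertain to that extent.

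Ccna2 encodes cyclin A2, which serves CDK2 in S phase and CDK1 in G2 (chromosome 3, 36463788 to 36471072, minus strand, ENSMUSG00000027715). It had 7.19, 7.0 and 6.97 log2 CPM in null libraries 1, 2 and 3, against 7.31, 7.25 and 7.33 in wild-type libraries 1, 2 and 3. The groups did not overlap. The means were 7.05 ± 0.12 in null and 7.30 ± 0.05 in wild type (SD, 3 libraries each), a change of -0.25 (SE 0.10, 95% interval -0.47 to -0.02), or 0.844 times wild type. The limma p was 0.0334 and the adjusted p 0.755. Its last 864 bases overlap Exosc9 on the opposite strand, an exosome gene that differed by -0.18 (SE 0.15). Use of strand in the counting is not given, so reads of the overlap cannot be told apart.

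The 3 genes ordered the 6 libraries identically. From high to low, each had wild-type libraries 3, 1 and 2, followed by null libraries 1, 2 and 3. Null library 1 was therefore closest to wild type for all 3, and null library 3, which stood apart on the main axis, was farthest. Without null library 3 the changes of Ccnb2, Ccnb1 and Ccna2 were -0.28, -0.18 and -0.20. Over the leaving out of each library in turn the unadjusted limma p ran from 0.0100 to 0.063 for Ccnb2, 0.033 to 0.114 for Ccnb1 and 0.0195 to 0.108 for Ccna2. It was above 0.05 for all 3 genes without wild-type library 1 or 3, for Ccnb1 and Ccna2 without wild-type library 2, and for Ccna2 without null library 2.

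The germ cell cyclin Ccna1 was rare and gave no clear difference. It lies on chromosome 3 from 54849391 to 54858977, on the minus strand (ENSMUSG00000027793). It had 20, 60 and 43 reads in null libraries 1, 2 and 3, against 16, 28 and 51 in wild-type libraries 1, 2 and 3. On the log2 CPM scale these were -0.38, 1.13 and 0.75 in null and -0.55, -0.05 and 0.90 in wild type. High and low libraries occurred in both genotypes. The change was 0.40 (SE 0.50, 95% interval -0.75 to 1.55), so a level between 0.596 and 2.92 times wild type lies within the interval. Counting error was 12.9 to 25% per library, and the SD between libraries was 0.78 in null and 0.74 in wild type on the log2 scale.

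Sequences upstream of Ccnb1 and Ccnb2 are shown because the pair was lower together across the null libraries and because mitotic cyclin promoters are known for CCAAT boxes, bound by NF-Y, and the cell cycle genes homology region (CHR), bound by the DREAM and MuvB complexes. RefSeq promoter windows of 300 bases, from 250 before the gene start to 50 after it, matched 5 of the 9 genes (Ccna1, Ccnb1, Ccnb2, Ccnd3 and Ccne1, with 2 windows for Ccnd3) in build GRCm38.p6. Ccna2, which was lower in the same libraries as the pair, had no matching window. The windows of Ccnb1 and Ccnb2 are printed 5' to 3' on the minus strand, with capitals on matches to CCAAT and to the CHR letters TTTGAA. The windows are chr13:100786437-100786736 for Ccnb1 and chr9:70421505-70421804 for Ccnb2.
Ccnb1: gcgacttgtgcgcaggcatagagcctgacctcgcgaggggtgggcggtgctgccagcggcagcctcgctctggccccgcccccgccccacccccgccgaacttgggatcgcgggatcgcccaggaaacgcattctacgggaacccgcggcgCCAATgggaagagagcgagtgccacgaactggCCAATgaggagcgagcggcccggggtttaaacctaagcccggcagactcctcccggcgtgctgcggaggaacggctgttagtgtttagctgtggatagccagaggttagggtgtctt
Ccnb2: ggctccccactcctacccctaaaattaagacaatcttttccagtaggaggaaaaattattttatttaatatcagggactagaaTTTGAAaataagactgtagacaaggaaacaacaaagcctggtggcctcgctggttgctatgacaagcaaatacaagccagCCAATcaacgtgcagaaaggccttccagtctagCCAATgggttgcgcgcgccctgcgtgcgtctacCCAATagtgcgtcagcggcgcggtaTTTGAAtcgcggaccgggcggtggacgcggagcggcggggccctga
Ccnb1 had 2 CCAAT boxes, starting 99 and 67 bases upstream of the gene start and 32 bases apart. Ccnb2 had 3, starting 87, 54 and 21 bases upstream and 33 bases apart at each step. A TTTGAA began 25 bases after the start of the last box in Ccnb2, and another lay 167 bases upstream. The same letters were not in the Ccnb1 window, which says only that these letters are absent there. Counting both strands, at least 1 CCAAT occurred in 37.4% and at least 1 TTTGAA in 17.9% of all 32851 promoter windows. The share of windows with repeated or evenly spaced copies was not computed. Of the other windows, Ccna1 had 1 CCAAT on the opposite strand and the Ccnd3 window farther downstream had 1. ACANTGT, the core of the sequence bound by DMRT proteins, was in none of the 6 cyclin windows and in 7.54% of all windows, and the E2F letters TTTNNCGC were in none of the 6 and in 5.17% of all. ACANTGT reads the same on both strands, and no motif searched overlaps another in the sequences shown.

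The D-type cyclins did not move as a group. Ccnd2 encodes cyclin D2, known in the testis from differentiating spermatogonia, and lies on chromosome 6 from 127075797 to 127101066 (minus strand, ENSMUSG00000000184). Its log2 CPM was 8.07, 7.77 and 8.14 in null libraries 1, 2 and 3, against 8.48, 8.19 and 8.08 in wild-type libraries 1, 2 and 3. Null library 2 was the lowest and wild-type library 1 the highest, and null library 3 lay above wild-type library 3. The change was -0.26 (SE 0.14, 95% interval -0.58 to 0.06), and the limma p was 0.1. Leaving out wild-type library 1 or null library 2 brought it to -0.14 and -0.15.

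Ccnd1 encodes cyclin D1, a G1 cyclin induced by growth factors (chromosome 7, 152115836 to 152125774, minus strand, ENSMUSG00000070348). Its log2 CPM was 6.00, 6.22 and 6.30 in null libraries 1, 2 and 3, against 5.88, 6.27 and 5.85 in wild-type libraries 1, 2 and 3. Wild-type library 2 lay among the null libraries and the other wild-type libraries lay below all of them. The change was 0.17 (SE 0.14, 95% interval -0.16 to 0.51). Without wild-type library 2 it was 0.31, with an unadjusted limma p of 0.0622.

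Ccnd3 encodes cyclin D3 and spans 94633 bases of chromosome 17 (47642000 to 47736632, plus strand, ENSMUSG00000034165). It had 5.77, 5.90 and 6.26 log2 CPM in null libraries 1, 2 and 3, against 6.04, 5.98 and 5.76 in wild-type libraries 1, 2 and 3. Null library 3 was the highest of the 6 and null library 1 was level with wild-type library 3. The change was 0.05 (SE 0.15, 95% interval -0.30 to 0.39), and it was negative without null library 3 (-0.095), without wild-type library 3 (-0.03) and with quantile normalization (-0.00056). Each D-type gene overlaps a gene on the opposite strand, Oraov1 for Ccnd1, 9330179D12Rik for Ccnd2 and Bysl for Ccnd3, by 818, 1660 and 353 bases.

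The E-type pair differed in opposite directions, each within the spread of the libraries. Ccne1 encodes cyclin E1 (chromosome 7, 38883003 to 38892553, minus strand, ENSMUSG00000002068), and its log2 CPM was 3.86, 3.68 and 3.65 in null libraries 1, 2 and 3, against 3.70, 4.16 and 4.0 in wild-type libraries 1, 2 and 3. Wild-type library 1 lay among the null libraries. The change was -0.23 (SE 0.16, 95% interval -0.60 to 0.15), on 310 to 524 reads a library, and without wild-type library 1 or 2 it was -0.35 or -0.12.

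Ccne2 encodes cyclin E2, the other S phase partner of CDK2 (chromosome 4, 11118498 to 11131926, plus strand, ENSMUSG00000028212). Levels were 5.26, 5.33 and 5.28 log2 CPM in null libraries 1, 2 and 3, against 5.04, 5.39 and 5.07 in wild-type libraries 1, 2 and 3. The null libraries lay close together, with an SD of 0.04 against 0.19 in wild type, and between the wild-type values. The change was 0.12 (SE 0.13, 95% interval -0.17 to 0.42). Without wild-type library 2 it was 0.23. Ccne2 shares 5622 bases with Ints8 on the opposite strand, an integrator subunit gene that differed by 0.09 (SE 0.10).

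**Figure D2:**
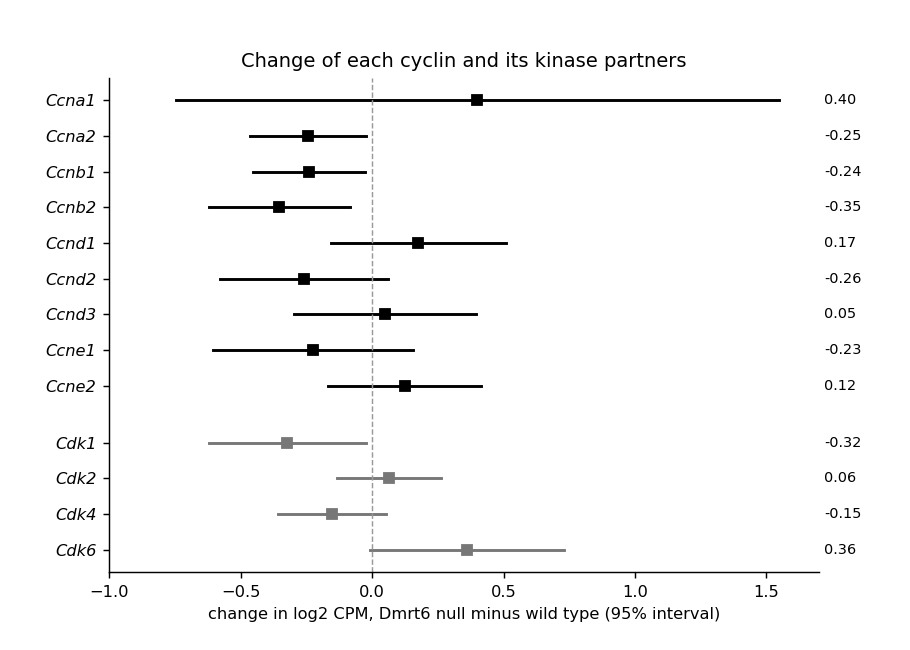
Change in log2 CPM, Dmrt6 null minus wild type (horizontal axis), for the 9 cyclins (black) and 4 CDKs (grey), with limma estimates as squares and 95% intervals as lines. The intervals of Ccna2, Ccnb1, Ccnb2 and Cdk1 lie below 0 before any adjustment, and that of Ccna1 reaches from -0.75 to 1.55.

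Ratios between cyclins within a library do not depend on how the library was scaled, and were chosen after the values were seen. The log2 ratio of Ccne2 to Ccne1 was 1.4, 1.65 and 1.63 in null libraries 1, 2 and 3, against 1.34, 1.22 and 1.07 in wild-type libraries 1, 2 and 3. The groups did not overlap, and the means differed by 0.35. With 3 libraries a genotype, the smallest two-sided p of an exact permutation test is 0.1. The ratio of Ccna2 to Cdk2, its S phase kinase, was -0.07, -0.13 and -0.26 in null and 0.21, 0.11 and 0.15 in wild type, also without overlap. Ccna2 alone already separated the genotypes and Cdk2 differed by 0.06, so this ratio is not a further difference. How often the ratios of other gene pairs separate was not computed. By contrast the log2 ratio of Ccna2 to Ccnb1 averaged -0.10 ± 0.09 in null and -0.09 ± 0.03 in wild type (SD, 3 libraries each). Those of Ccnb2 to Ccnb1 and Ccnb1 to Cdk1 also overlapped between genotypes, with differences of -0.11 and 0.08. That of Ccnd2 to Ccnd1 averaged 1.82 ± 0.26 in null and 2.25 ± 0.34 in wild type, and overlapped. The remaining ratios computed, Ccna2 to Ccna1, Ccnd3 to Ccnd1 and Ccnd2 to Cdk4, overlapped as well, with differences of -0.65, -0.13 and -0.11.

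**Figure D3:**
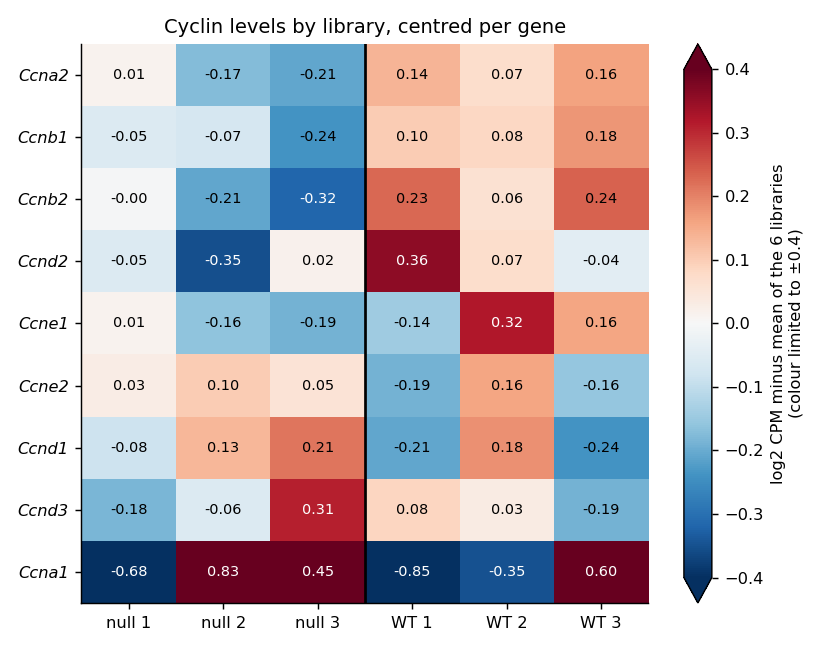
Log2 CPM of each cyclin minus its mean over the 6 libraries (colour and printed value; colour limited to ±0.4), with the 3 Dmrt6 null libraries left of the line and the 3 wild-type libraries (WT) right of it. Ccna2, Ccnb1 and Ccnb2 share one order of libraries, while Ccnd1 and Ccne2 are high in wild-type library 2 and Ccna1 swings most, from -0.85 to 0.83.

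The kinases that these cyclins activate were read in the same fit. Cdk1, the mitotic kinase, had a log2 CPM of 6.60, 6.37 and 6.24 in null libraries 1, 2 and 3, against 6.74, 6.56 and 6.88 in wild-type libraries 1, 2 and 3. Null library 1 lay just above wild-type library 2. The change was -0.32 (SE 0.13), with a limma p of 0.0373 and an adjusted p of 0.755. Cdk2 differed by 0.06 (SE 0.09), with overlapping groups. Of the D-type cyclin partners, Cdk4 was lower in every null library (-0.15, SE 0.09) and Cdk6 higher in every null library (0.36, SE 0.16), with unadjusted limma p of 0.127 and 0.0532.

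The wider cyclin pathway showed no shared direction. Of 81 other pathway genes tested, 38 were lower and 43 higher in null, the median change was 0.03, and none passed the adjusted threshold in limma. An unadjusted p below 0.05 was found for 2 lower genes and 1 higher gene, Cdk1, Fbxo5 and Ccno, beside 1.85% and 1.63% of all tested genes. A mixed group of CDK activation and phosphorylation holds the CDK-activating kinase, CDC25 phosphatases, WEE1 kinases and CKS proteins. In it 7 of 10 were lower, with Cks1b at -0.16 (SE 0.11), Cdc25a at 0.25 (SE 0.19) and Mnat1 at -0.20 (SE 0.15). The kinase genes Wee1 at 0.03 (SE 0.15) and Pkmyt1 at 0.07 (SE 0.33) were among the 3 higher. Of the 8 CDK inhibitors 6 were higher. The 3 of smallest p were Cdkn3 at -0.30 (SE 0.21), Cdkn2c at -0.26 (SE 0.19) and Cdkn2b at 0.30 (SE 0.30). Wee2, an oocyte kinase, was measured but fell under the filter.

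The RB, E2F and DREAM factors, which repress or induce cyclin genes through the cycle, were lower for 11 and higher for 9 of 20. The retinoblastoma gene Rb1 differed by 0.34 (SE 0.18), its relative Rbl1 by -0.19 (SE 0.10) and E2f4 by 0.30 (SE 0.20). Among genes of cyclin destruction by the anaphase-promoting complex and SCF ligases, 11 of 23 were lower. Fbxo5, an inhibitor of the anaphase-promoting complex, had 1011, 877 and 845 reads in null libraries 1, 2 and 3, against 975, 1247 and 1301 in wild-type libraries 1, 2 and 3. Its change was -0.35 (SE 0.12), with a limma p of 0.0224 and an adjusted p of 0.755. In log2 CPM every null library was below every wild-type library. Cdc26 differed by -0.24 (SE 0.13) and Ube2c, the ubiquitin-conjugating enzyme of that complex, by -0.32 (SE 0.18).

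Of 18 other cyclins tested, 12 had a higher mean in null. The B-type gene Ccnb3, a cyclin of meiosis, had 2.71, 3.14 and 3.29 log2 CPM in null libraries 1, 2 and 3, against 3.19, 3.37 and 3.30 in wild-type libraries 1, 2 and 3. The groups overlapped, and the change was -0.24 (SE 0.19). Ccno, known from the multiplication of centrioles in multiciliated cells, had 98, 123 and 190 reads in null libraries 1, 2 and 3, against 53, 91 and 54 in wild-type libraries 1, 2 and 3. It was higher in every null library in log2 CPM, with a change of 1.05 (SE 0.31), a limma p of 0.00923 and an adjusted p of 0.755. Ccnjl differed by 0.48 (SE 0.25) and Ccng2 by -0.26 (SE 0.13). Full separation was found for 5 of the 81 pathway genes downward (Cdk4, Cdc25c, Rbl1, Lin54 and Fbxo5) and 2 upward (Cdk6 and Ccno), beside 6.02% and 5.06% of all tested genes.

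**Figure D4:**
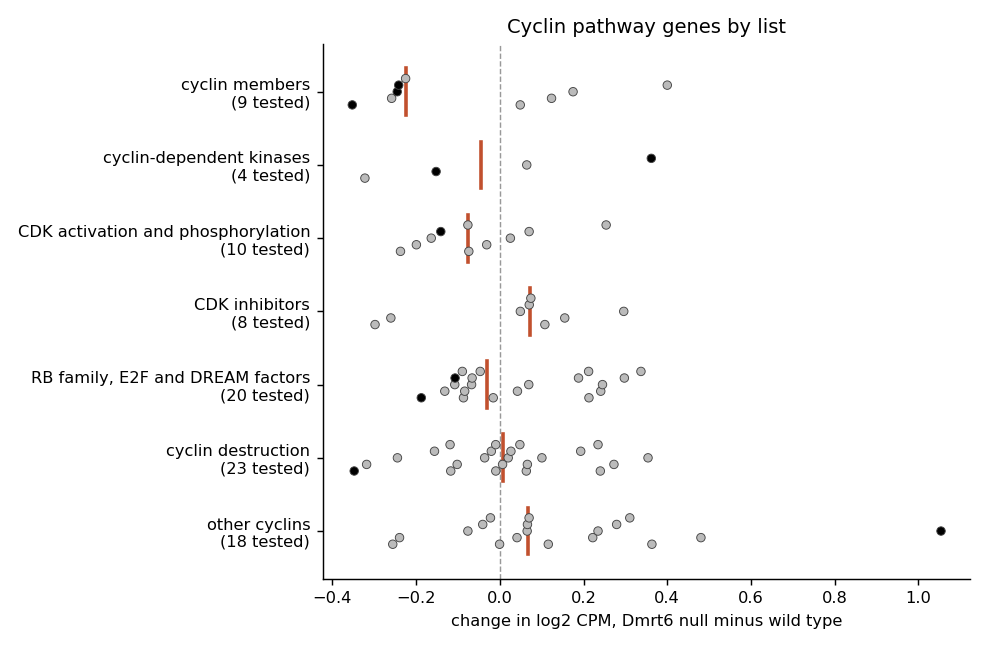
Change in log2 CPM, Dmrt6 null minus wild type (horizontal axis), of every tested gene in the cyclin lists and pathway lists; black points are genes whose libraries do not overlap between genotypes and red bars are list medians. The medians run from -0.23 for the 9 cyclins to 0.07 for the CDK inhibitors and the other cyclins, and Ccno lies farthest from 0.

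Markers of the cell types in whole testis were read beside the cyclins, and their part in the cyclin values was not tested. None of the 74 markers tested passed the adjusted threshold in limma. By unadjusted limma p below 0.05, 10 were lower and 6 higher, beside 1.85% and 1.63% of all tested genes. The lower were 4 of red blood cells, 3 of macrophages and leukocytes, 2 of Leydig cells and 1 of endothelial cells. The higher were 5 of spermatogonia and 1 of meiotic prophase. In bulk RNA, fewer cells of a type and less RNA per cell cannot be told apart. The counts of direction below are by means, and 48.3% of all tested genes had a lower mean in null. Red blood cell markers were lower in null for 5 of 5, with a summed level of 717 to 1255 CPM in null and 1477 to 1776 CPM in wild type. Macrophage and leukocyte markers were lower for 9 of 9, at 139 to 193 CPM in null and 160 to 260 CPM in wild type. Of the spermatogonial markers 11 of 15 were higher, at 1709 to 2085 CPM in null and 1583 to 1808 CPM in wild type. For Sall4 and Dmrt1 among them, null library 3 was the highest, and null library 2 lay below wild-type libraries 1 and 2. Leydig markers were lower for 5 of 8, at 740 to 866 CPM in null and 804 to 976 CPM in wild type. Sertoli markers had a higher mean for 9 of 11 (2421 to 3337 CPM in null, 2815 to 2951 CPM in wild type). None was higher in every null library, and the summed null levels lay on both sides of wild type. For Sox9, Gata4 and Amh, null library 3 was the highest of the 6 libraries and null library 2 the lowest. Meiotic prophase markers were lower for 7 of 11 (626 to 725 CPM in null, 603 to 744 CPM in wild type). Peritubular and stromal markers were lower for 5 of 8 (3676 to 5509 CPM in null, 4556 to 4886 CPM in wild type) and endothelial markers for 4 of 7 (162 to 200 CPM in null, 188 to 236 CPM in wild type).

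Genes with the most similar pattern to each cyclin were found by Pearson r over the 6 libraries among all tested genes. With 6 points and 16634 genes, high values arise for any gene, so they are given as a description only. For Ccna2 these included Nrd1 (r = 0.998) and Gsta3 (0.994), for Ccnb1 H2afz (0.996) and for Ccnb2 Sdhaf1 (0.993). H2afz, a histone variant gene, and Nrd1 each differed by -0.34 (SE 0.11). Ccnd1 was most like Efcab3 (0.997) and Aspg (0.992), Ccnd2 like 9030224M15Rik (0.990) and Egr2 (0.985) and Ccnd3 like Nfkb2 (0.992) and Cx3cl1 (0.987). Ccne1 was most like Rpn1 (0.977) and Mrpl34 (0.974), Ccne2 like Atp2c1 (0.983) and Prmt5 (0.978) and Ccna1 like Ttc25 (0.986) and Rabl2 (0.981). Spearman rho of the pairs named ran from 0.83 to 1.00.

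DMRT6 peaks of adult testis lay within 10 kb of the 5' end of 3 of the 9 cyclins, Ccna2, Ccnd3 and Ccne2. Such a peak was found for 31.2% of all tested genes, and for 24.3% within 5 kb, where the same 3 cyclins counted, so the share among cyclins was near the background. Scores below are the authors' own, in a list that runs from 50.02 to 3100 with a median of 94.7. The expression data are from P8 and the peaks from the adult, and since there is 1 ChIP library no peak has a replicate check.

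Both peaks within 1 kb of a cyclin start were among the weakest of the list. At Ccna2 the peak on chromosome 3 from 36470744 to 36470945 (mm9) had its middle 228 bp inside the gene and a score of 53.9. Only 4.28% of peaks scored lower. At Ccne2 the peak on chromosome 4 from 11118254 to 11118400 lay 171 bp upstream of the 5' end with a score of 55.0, and 5.15% of peaks scored lower. A peak this close was found for 16% of tested genes. The peak near Ccnd3 (chromosome 17, 47639083 to 47639319, score 74.1) lay 2799 bp upstream of Ccnd3 and 40 bp from the 5' end of Taf8, which encodes a subunit of the general transcription factor TFIID. With a score of at least 100 required, none of the 9 cyclins had a peak within 10 kb, against 16.1% of tested genes.

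Ccnb1 and Ccnb2 had no peak within 10 kb. The nearest to Ccnb2 was 19.3 kb upstream, inside Rnf111 (chromosome 9, 70288620 to 70288766, score 88.3), and the nearest to Ccnb1 was 22.3 kb downstream of its 5' end, inside Cenph (chromosome 13, 101534093 to 101534292, score 143). A second peak within 50 kb of Ccnb1 lay 23 bp from the 5' end of the zinc transporter gene Slc30a5. The 3 cyclins that were lower in every null library thus comprised 1 with a peak within 10 kb and 2 without.

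Several peaks farther out were closer to another gene's start. A peak 22.8 kb from the 5' end of Ccna2 with a score of 220 was 3301 bp from that of Exosc9. At Ccnd2 the nearest peak was 33.5 kb downstream of the 5' end, beyond the end of the gene and 8038 bp from the 5' end of 9630033F20Rik (chromosome 6, 127067496 to 127067716, score 265). A peak inside Ccnd3, 50.3 kb from its 5' end (chromosome 17, 47692203 to 47692491, score 268), had no other gene's 5' end nearer to it. Around Ccne2 lay 4 peaks within 50 kb, 2 of them at the start of Trp53inp1, a p53-induced gene, at 22 and 132 bp. Ccna1, Ccnd1 and Ccne1 had no peak within 50 kb, where 64.2% of tested genes had one. The nearest to Ccna1, 126 kb upstream, was the peak 533 bp from the start of Sohlh2, a transcription factor gene of spermatogonia, with a score of 343. That of Ccnd1 was 242 kb away inside Ano1 and that of Ccne1 74.8 kb upstream. The median distance to the nearest peak was 22.3 kb for the 9 cyclins and 27.4 kb for tested genes.

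**Figure D5:**
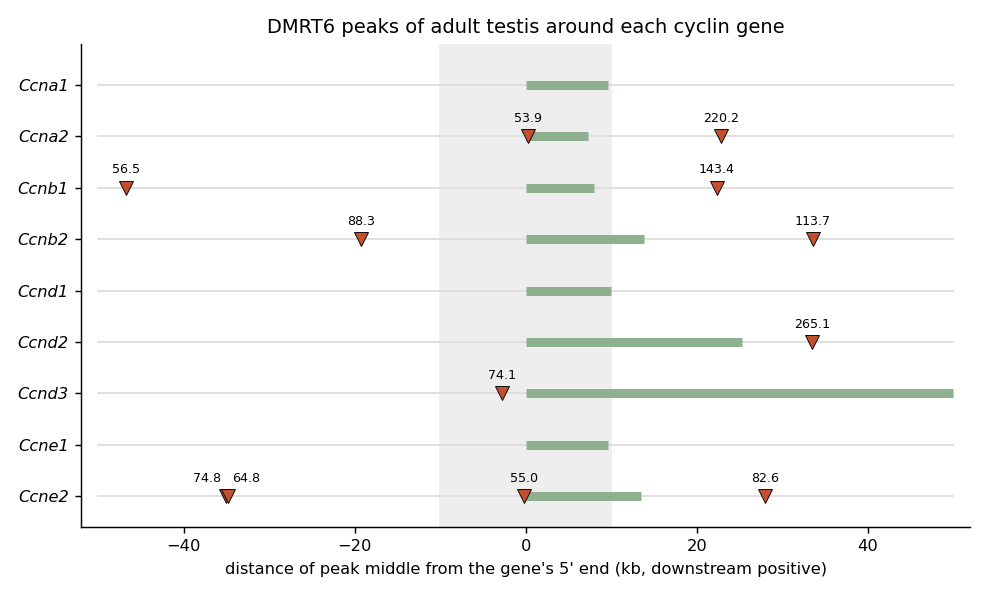
DMRT6 peaks (triangles, with the authors' score) by distance of their middle from each cyclin's 5' end (horizontal axis, kb), with gene bodies in green and the 10 kb window shaded. Peaks fall in the window for Ccna2, Ccnd3 and Ccne2, at scores of 53.9, 74.1 and 55.0, and Ccna1, Ccnd1 and Ccne1 have none within 50 kb.

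Peaks near the other pathway genes were counted the same way. Of the 81 genes 44 had a peak within 10 kb, or 54.3%, against 31.2% of all tested genes, a description with no test. They included Cdk2 and Cdk4, but neither Cdk1 nor Cdk6. Of the 7 pathway genes whose genotypes did not overlap, named after their values were seen, 6 had such a peak. Its distance from the 5' end was 0.075 kb for Cdk4, 0.038 kb for Cdc25c, 0.268 kb for Rbl1, 6.08 kb for Lin54, 0.446 kb for Fbxo5 and 0.166 kb for Ccno. For Cdk6 the nearest peak was 16.1 kb away.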

How the data were processed

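RNA libraries of P8 testis were made with the Illumina TruSeq protocol, per the labels' protocols. The deposited values are log2 CPM, computed by the authors with a small prior. The tools named in the submitters' processing notes, with no role or order, are edgeR, Picard, Bowtie2 and STAR 2.3.0e, and the build named is mm9. Nothing in the sources used here gives the read counter, the annotation or the use of strand. In each library 2 to the power of the value rose in equal steps, so whole reads were recovered for 100% of values at a tolerance of 1e-06. The library sizes behind the steps were 0.979 to 1.01 times the summed reads. Counting errors of reads cover counting only, and the 95% intervals of changes come from the spread between libraries, moderated over genes as described below.

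Genes with a mean of at least 0 log2 CPM over the 6 libraries were tested with limma-trend (limma 3.58.1, R 4.3.3) in a model of genotype alone, with Benjamini-Hochberg adjustment over 16634 genes at 0.05. The procedure was tested on simulated data. Changes are null minus wild type. Where limma p-values are given, they test the difference between genotypes against the spread between these libraries, moderated over genes. Genes were named by rule: the 9 cyclins, Dmrtb1, 4 CDKs, up to 3 genes of smallest p in each pathway list, and the 2 genes most like each cyclin, of which some are not reported here. Others were named after their values were seen. Members and lists were chosen with earlier results of these data known.

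DMRT6 peaks and their score were deposited by the authors as a list of 14862 regions, called with MACS 1.4 after removal of duplicates, per the name of the deposited list. The scale of the score is not given, and the ChIP depth is unknown. A peak was assigned by the distance of its middle from a gene's outer 5' end in the expression table (mm9, 1-based). Promoter sequences are from RefSeq (GRCm38.p6) and were not placed on mm9 peaks.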

Additional observations from a re-analysis of the deposited data

How the results depend on the processing

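No cyclin passed the adjusted threshold under any of 15 alternatives, replicate block and voom included, and the count of cyclins past it stayed 0. The count at an unadjusted limma p below 0.05, 3 here, was less stable. It was 1 with the replicate block (Ccnb2), 2 with array weights (Ccnb1 and Ccnb2) and 0 to 4 on leaving out each library. Ccna2, Ccnb1, Ccnb2, Ccnd2, Ccne1, Ccne2 and Cdk1 kept their direction under all 15. Not all of these could change it, since other filters and the replicate block returned the same changes. For the separated genes Ccna2, Ccnb1 and Ccnb2, leaving out a library or adding a pseudocount could not change it either. Ccna2 ranged from -0.31 to -0.10, Ccnb1 from -0.29 to -0.17 and Ccnb2 from -0.44 to -0.16. Ccnd3 turned to -0.00056 with quantile normalization and -0.16 with array weights, and ran from -0.095 to 0.152 on leaving out each library (below 0 with null replicate 3 or wild-type replicate 3 left out). With array weights Ccna1 turned to -0.45 and Ccnd1 to -0.045. The cause was not tested. Those weights gave null replicate 1 a weight of 19.3 against 0.153 to 1.46 for the others, and their fit stopped before convergence. Ccna1 has no value at a mean of at least 2 log2 CPM. The count of cyclins lower in every null library was 3 to 4 on leaving out each library and 3 to 4 with other scalings or pseudocounts. These alternatives were added after the data were seen. Leaving out a library cannot undo a full separation, and a pseudocount keeps the order of the libraries. Only the other scalings could therefore have lowered this count.

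The count of all genes past the threshold, 1 here, was 3 with no filter, 0 at a mean of at least 2, 2 with log2(CPM + 0.5), 2 with quantile normalization, 3 with median centring, 136 with array weights, 2 with the replicate block and 0 to 5 on leaving out each library (0 without null replicate 1, 5 without null replicate 3). Where limma called 0, 420 genes at a mean of at least 2 and 678 without null replicate 1 had an unadjusted p below 0.05. Other tools were not run in those settings, and voom on all tested genes and libraries called 1 gene. Deviations from the genotype means had correlations of -0.09, -0.22 and -0.04 between same-numbered libraries, and -0.14 to 0.23 between the others. With 3 libraries a genotype these cannot decide whether the numbers pair the libraries. Cyclins with a peak numbered 6 within 50 kb and 0 at a score of at least 100. Among the 9 cyclins, counting error was highest for Ccna1.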
